A study of Mus musculus with 12 samples.

Results

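The genes described here lie around Tbx3 on mouse chromosome 5. They are the genes whose start, the lower coordinate of the gene, is within 10 Mb of position 119670669 (GRCm38), the start of Tbx3, and which had at least 10 expected counts in 3 or more of the 6 Tbx3-series libraries. Tbx3, Tbx5, Rplp0 and genes whose symbols start with Rpl, Cox or Zfp9 were left out. Of 590 genes in the window, 219 met this rule, 362 were under the count minimum and 9 were left out by name. The files hold 53465 genes. The window and the counts chose the genes. Of the 219, 198 reached 10 counts in all 6 libraries, 0 passed through the wild-type libraries alone and 2 passed through the Tbx3-deficient libraries alone. By annotation 190 are protein coding, 11 are lincRNAs, 6 are of the class TEC (to be experimentally checked), 5 are antisense RNAs, 4 are processed pseudogenes, 2 are processed transcripts and 1 is sense overlapping.

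Forelimb bud RNA was sequenced in 12 libraries, 3 per group, all from mice labelled Swiss albino, each library from 1 pair of buds. The Tbx3 series (E9.75 to E10.0, 28 to 31 somites) compared wild-type buds with buds of the genotype Tbx3ΔVenus/ΔVenus, in which Venus and a transcription stop stand at the start codon on both copies of Tbx3. The Hand2 series (E10 to E10.25, 31 to 33 somites) compared Prrx1-Cre;Hand2+/+ buds with Prrx1-Cre;Hand2Δ/Δc buds. Prrx1-Cre acts in the limb mesenchyme, so the other cells of these buds are not all deleted, and both Hand2 groups carry the Cre. The groups are called Tbx3 wild type, Tbx3-deficient, Hand2 wild type and Hand2-deficient below, by label. The sources used here do not name the strain in which the Tbx3 allele was made or the number of backcrosses.

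TBX3 is a T-box transcription factor, known mainly as a repressor, that is active at the anterior and posterior margins of the limb bud. DNA on both sides of an engineered allele is inherited with it. Genes there can differ between mutants and wild types in several ways that RNA levels do not separate. Among these are the factor that was lost and linked sequence. In this design the allele and the chromosome around it cannot be told apart, since all 3 deficient embryos carry the allele on both copies. How much linked DNA each of them carries with it is not given. The Hand2 series shares no library with the Tbx3 series, and Hand2 lies on another chromosome, so it serves as a contrast. That series is not uniform around Tbx3, as the pseudogene Gm13841, given below, varied among its libraries.

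The promoters of the genes that the results turn on are shown first, as the 250 bases before the transcript start in RefSeq (GRCm38.p6), 5′ to 3′ on the strand of the gene. Gltp fell and Gtpbp6 and Zfp605 rose in Tbx3-deficient buds, and these 3 calls held in 6, 6 and 5 of the 6 fits that left out 1 library. In Gltp (minus strand, chr5:114690936-114691185), capitals mark 3 CCAAT boxes and 4 GC boxes (GGGCGG), each on either strand. In Gtpbp6 (minus strand, chr5:110108198-110108447) they mark 3 GC boxes. In Zfp605 (plus strand, chr5:110109842-110110091) they mark both copies of a 35-base direct repeat.
Gltp: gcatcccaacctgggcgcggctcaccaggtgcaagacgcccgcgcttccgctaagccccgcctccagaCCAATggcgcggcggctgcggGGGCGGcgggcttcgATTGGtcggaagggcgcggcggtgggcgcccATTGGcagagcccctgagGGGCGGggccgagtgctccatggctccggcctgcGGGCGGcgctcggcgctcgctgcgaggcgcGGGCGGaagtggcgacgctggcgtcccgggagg
Gtpbp6: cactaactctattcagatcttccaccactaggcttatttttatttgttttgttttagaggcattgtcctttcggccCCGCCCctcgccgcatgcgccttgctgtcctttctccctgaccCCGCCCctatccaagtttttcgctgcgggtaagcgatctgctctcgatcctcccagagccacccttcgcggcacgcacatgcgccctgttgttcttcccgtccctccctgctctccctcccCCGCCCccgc
Zfp605: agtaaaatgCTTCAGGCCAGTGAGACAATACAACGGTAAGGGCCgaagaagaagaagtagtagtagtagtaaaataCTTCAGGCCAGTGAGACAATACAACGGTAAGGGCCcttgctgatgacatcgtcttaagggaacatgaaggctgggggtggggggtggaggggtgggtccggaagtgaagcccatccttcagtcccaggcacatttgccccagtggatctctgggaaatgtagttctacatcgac
None of these 3 windows holds GGTGTGA, the core of the T-box motif, on either strand. The start of Gltp differs between RefSeq and GENCODE, and the last bases of its window lie inside the gene as GENCODE gives it.

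Of the 219 genes, 158 had a promoter in the RefSeq table, with 192 windows. GGTGTGA was in 2.08% of these windows and in 3.33% of all 32851 windows of the same length. The 4 genes that hold it are Aacs, Hps4, Trpv4 and Usp30, of which Trpv4 was too low to be tested and the others were not called in the Tbx3 comparison. The hypoxia response core ACGTG was in 18.8% of the windows and in 16.6% of all. GGGCGG was in 60.9% against 32.7%, and CCAAT in 28.1% against 33.8%. The genes around Tbx3 passed a count minimum, while the windows of the whole table were not chosen by counts. The 2 sets are therefore unlike, and nothing about the region is read from these shares. A match gives the letters only and shows no binding, and GGGCGG and CCAAT were searched without regard to overlap. Gtpbp6 and Zfp605 point away from each other, with 1895 bases between their 5′ ends. Mmp17, Erp29, Pxmp2 and Gm42878 are named without a promoter.

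Libraries of the Tbx3 series held 23.3 to 31.8 M (1e6) counts and those of the Hand2 series 60.2 to 68.6 M, and the 219 genes held 1.39% to 1.53% of them. Levels are CPM, counts per 1e6 scaled by TMM over all 12 libraries. Tbx3 itself, whose RNA is a check of the labels, was at 78.6, 78.0 and 79.2 CPM in wild types and at 80.7, 79.9 and 73.6 CPM in Tbx3-deficient buds (log2 ratio of deficient over wild type -0.01, SE 0.0515, adjusted p = 0.954). Gene counts therefore do not show the allele, and the genotype of the Tbx3 series rests on the labels. Why the counts of Tbx3 did not fall was not tested. Hand2 was at 119, 120 and 125 CPM in its wild types and at 0.185, 2.2 and 0.382 CPM in Hand2-deficient buds. From Xist and Y-linked counts, the 3 Tbx3 wild types were female, and Tbx3-deficient replicates 1 and 2 were male and replicate 3 female. The Hand2 wild types held 2 females and 1 male and the Hand2-deficient buds 1 female and 2 males. The limb mesenchyme markers were present in every library, summing to 1795 to 1876 CPM in Tbx3 wild types and 1512 to 1739 CPM in Tbx3-deficient buds, with 0 of 7 called.

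The Tbx3 comparison asks which genes around the locus differ in buds carrying the Tbx3 allele. Of 217 of these genes tested, 8 changed, 5 higher and 3 lower, at an adjusted p under 0.05 in edgeR's quasi-likelihood test over all 15130 genes tested. That is 3.69%, against 1.01% of all genes tested, 2.30% higher against 0.727% and 1.38% lower against 0.284%. Gtpbp6, Zfp605, 4930522L14Rik, Acad10 and Mmp17 rose, and Gltp and Fzd10 were among the 3 that fell. All 8 are protein coding, and in all 8 the 3 wild-type and 3 deficient libraries did not overlap. With embryo sex in the model 0 of the 8 passed, adjusted p from 0.0577 to 0.315 in the 7 described below, and 22 genes passed over the whole table. With sex in the model the log2 ratios were -0.76 for Gltp, 0.63 for Gtpbp6, 1.25 for Zfp605, 1.24 for Mmp17, 0.99 for 4930522L14Rik, 0.97 for Acad10 and -0.39 for Fzd10, and those without it are given with each gene. In all 8 genes the female deficient library lay on the deficient side of all 3 female wild types. That follows from the groups not overlapping and says nothing further about sex. Leaving out wild-type replicate 1, 2 or 3 left 3, 2 and 4 calls, and leaving out deficient replicate 1, 2 or 3 left 8, 3 and 4.

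Below the adjusted threshold the shares were larger. An unadjusted p under 0.05 was met by 67 of the 217 genes, 30.9%, against 14.3% of all genes tested. Of the 67, 31 were higher and 36 lower. Wild-type and deficient libraries did not overlap in 77 of the 217, 35.5%, against 20.4% of all genes tested. The median log2 ratio of the 217 was -0.01, that of all genes tested -0.003. Their median size of change was 0.13 on the log2 scale, against 0.11 over all genes. Changes ran from -2.04 to 1.93, and 20 genes, 9.22%, differed by at least 1.5-fold. The share was 8.01% of the 14956 genes tested that passed the same count minimum, with the same names left out. The value of 1.93 is that of the pseudogene Gm6139, which reached 10 counts in the deficient libraries alone, so it had to differ. With sex in the model, 15.7% of the genes met an unadjusted p under 0.05, against 8.20% of all genes. Leaving out each library in turn gave 24% to 27.8% for the genes around Tbx3 and 10.1% to 14.3% for all genes.

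**Figure D1:**
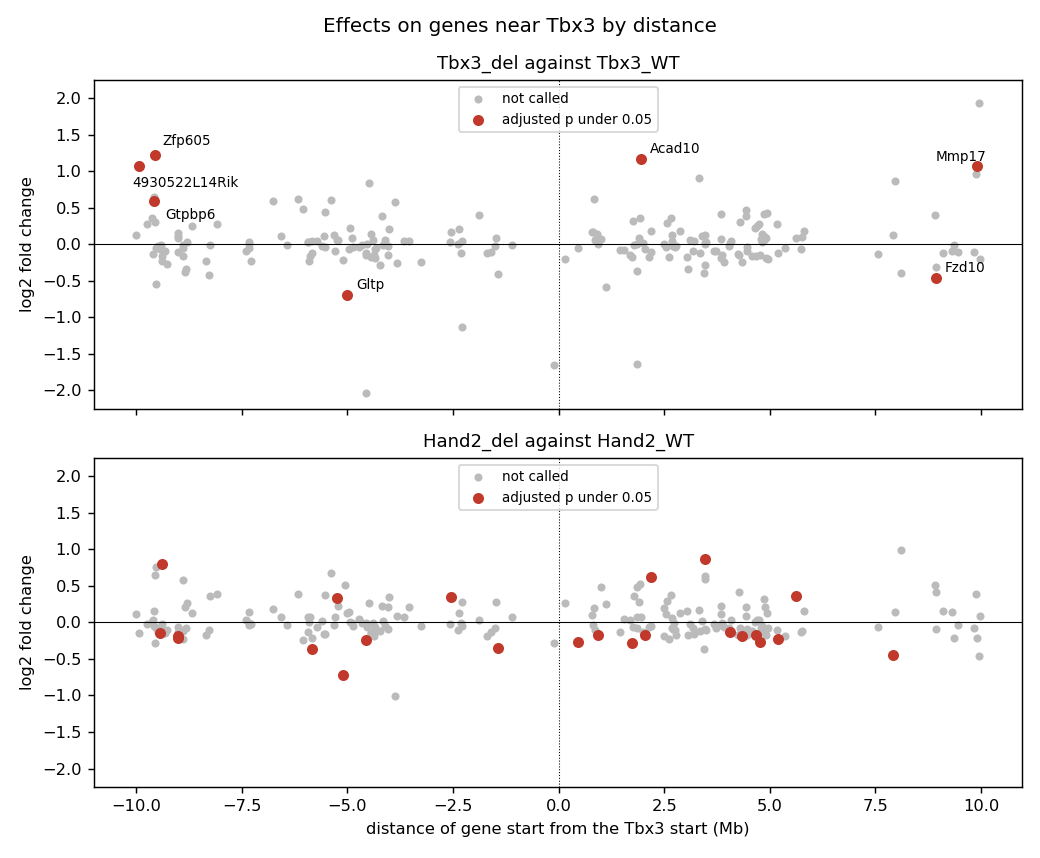
Log2 fold change (vertical) of the genes near Tbx3 reported here against the distance of its start from the Tbx3 start in Mb (horizontal), in the Tbx3 comparison (top) and the Hand2 comparison (bottom). Each point is 1 gene, and red points passed an adjusted p under 0.05. In the top panel 7 such genes are shown, none of them within 1 Mb of Tbx3, where only 9 genes were tested. In the bottom panel 23 passed across the window.

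None of the calls lay within 1 Mb of Tbx3, where few genes were tested. Of the 9 genes tested there, 0 were called at an adjusted p under 0.05 and 3 had an unadjusted p under 0.05. With 3.69% of the genes around Tbx3 called, and 1.01% of all genes tested, 9 genes would hold few calls. Nothing about location is read from that 0. Acad10, at 1.95 Mb, was the only call among 32 genes between 1 and 2.5 Mb. None of 91 genes between 2.5 and 5 Mb was called, though 32 of them had an unadjusted p under 0.05. Gltp was 1 of 2 calls among 36 genes between 5 and 7.5 Mb, and 5 calls were among 49 genes between 7.5 and 10 Mb, 10.2% of them. The start of Gltp is 5001 kb from that of Tbx3, just past the edge at 5 Mb, so the empty step before it rests on that edge. Below Tbx3 4 of 106 genes were called and above it 4 of 111.

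The share of genes with an unadjusted p under 0.05 was 33.3%, 25%, 35.2%, 27.8% and 28.6% in these 5 steps outward, and 14.4% among 201 genes between 10 and 20 Mb. It was 14.1% on the rest of chromosome 5 and 14.1% on the other chromosomes. Beyond the window the shares were not alike on both sides. Below Tbx3 the share was 33.3% of 21 genes from 10 to 12.5 Mb, 30.0% of 10 genes from 12.5 to 15 Mb and 17.9% of 28 genes from 15 to 20 Mb. Above Tbx3 it was 0 of 22 genes, 15.4% of 13 genes and 11.2% of 107 genes. The steps with 10 and 13 genes are thinly filled. The difference between both sides was not tested. In the Hand2 comparison the shares in the same 5 steps were 33.3%, 30.3%, 33.0%, 32.4% and 32.7%, and 33.7% between 10 and 20 Mb, so no such fall with distance was seen.

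**Figure D2:**
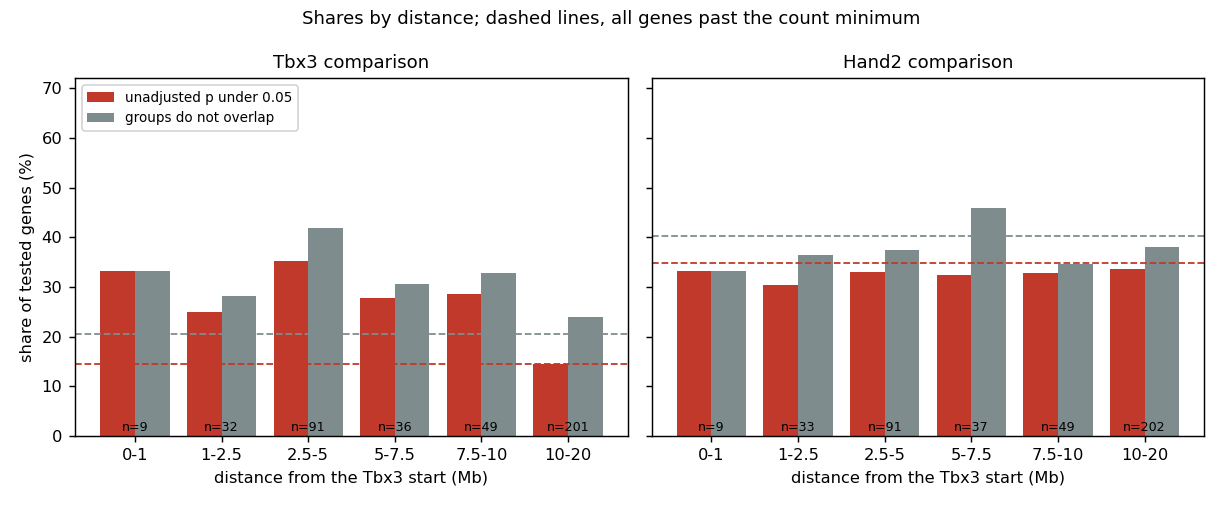
Share of tested genes (vertical, percent) with an unadjusted p under 0.05 (red) and with groups that do not overlap (grey), by distance from the Tbx3 start in Mb (horizontal), for the Tbx3 comparison (left) and the Hand2 comparison (right); n is the number of genes tested and dashed lines are all genes past the count minimum. In the Tbx3 comparison the red bars stand between 25% and 35.2% within 10 Mb and at 14.4% beyond it, and in the Hand2 comparison they stand between 30.3% and 33.7% throughout.

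The 5 genes called between 10 and 20 Mb, outside the rule, all lie below Tbx3. Gak, a clathrin-uncoating kinase gene at -11.1 Mb, was at 89.5, 85.5 and 81.4 CPM in wild types and at 68.1, 65.9 and 67.0 CPM in deficient buds (log2 ratio -0.35, adjusted p = 0.0310). Tmed5, at -11.6 Mb, rose by 0.47 (adjusted p = 0.0153), Mtf2, at -11.6 Mb, fell by 0.25 (adjusted p = 0.0462), and Rpap2, at -12.1 Mb, rose by 0.61 (adjusted p = 0.0310), all log2. Sparcl1, at -15.6 Mb, was at 7.57, 6.21 and 7.14 CPM in wild types and at 16.7, 19.4 and 24 CPM in deficient buds (log2 ratio 1.52, adjusted p = 0.00893). These adjusted p are from edgeR's quasi-likelihood test, as are those below.

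Gltp encodes the glycolipid transfer protein, which carries glycosphingolipids between membranes (ENSMUSG00000011884, GRCm38 chromosome 5, 114669398 to 114690984, 5.0 Mb below Tbx3). It was at 29.4, 28.4 and 30.3 CPM in Tbx3 wild types and at 19.2, 18.0 and 17.3 CPM in Tbx3-deficient buds. The 3 deficient libraries were low, and the groups did not overlap. Gltp fell by 0.69 on the log2 scale (SE 0.0678, adjusted p = 0.00893). The 6 Hand2-series libraries had 31.5, 34.4 and 32.8 CPM in wild types and 36.9, 35.4 and 35.5 CPM in Hand2-deficient buds, all above the Tbx3-deficient libraries (log2 ratio 0.13, adjusted p = 0.129). The call held without each of the 6 Tbx3-series libraries, adjusted p at most 0.0469.

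Gtpbp6 and Zfp605 are neighbours 9.57 and 9.56 Mb below Tbx3, and both rose. Gtpbp6 (ENSMUSG00000033434, 110103975 to 110108197) encodes a GTP-binding protein that in human cells acts on mitochondrial ribosomes. It was at 23.2, 24.6 and 23.2 CPM in wild types and at 36.3, 34.1 and 36.7 CPM in deficient buds, a log2 ratio of 0.59 (SE 0.0579, adjusted p = 0.00893). The 6 Hand2-series libraries lay between 20.1 and 24 CPM, with the wild types. Of the exon bases of Gtpbp6, 39.5% overlap Plcxd1, which is on the opposite strand, and the sources used here do not say whether the counting used strand. Plcxd1 was at 2.19, 1.97 and 1.84 CPM in wild types and at 2.97, 3.18 and 3.24 CPM in deficient buds (log2 ratio 0.65, adjusted p = 0.141), so both genes were higher and their reads cannot be told apart in the overlap.

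Zfp605 (ENSMUSG00000023284, 110110092 to 110129794) encodes a zinc-finger protein. It was at 5.76, 5.56 and 6.79 CPM in wild types and at 12.8, 14.9 and 14.4 CPM in deficient buds, a log2 ratio of 1.21 (SE 0.125, adjusted p = 0.009). In the Hand2 series 5 libraries lay between 6.56 and 7.43 CPM and Hand2 wild-type replicate 2 stood apart at 11.2 CPM. That library was on the deficient side of the gap between the Tbx3 groups. The repeat in its promoter, marked above, is the longest direct repeat in the window, and Zfp605 shares 5.81% of its 31-base words with transcripts of other genes, most with the processed pseudogene Gm15484 on the opposite strand.

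4930522L14Rik (ENSMUSG00000072762, 109735990 to 109751886), 9.93 Mb below Tbx3, rose by 1.07 (SE 0.160, adjusted p = 0.0338). It was at 2.84, 2.84 and 3.45 CPM in wild types and at 7.21, 5.98 and 6.07 CPM in deficient buds. The Hand2 libraries were at 3.79, 6.05 and 3.35 CPM in wild types and at 3.67, 4.48 and 3.76 CPM in deficient buds, and Hand2 wild-type replicate 2 was again the highest of them. It shares 25.5% of its 31-base words with other genes, most with its neighbours Gm17655 and 5430403G16Rik, so its reads could be split among copies. Without any 1 of the 6 libraries its call was lost (adjusted p from 0.0527 to 0.109).

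**Figure D3:**
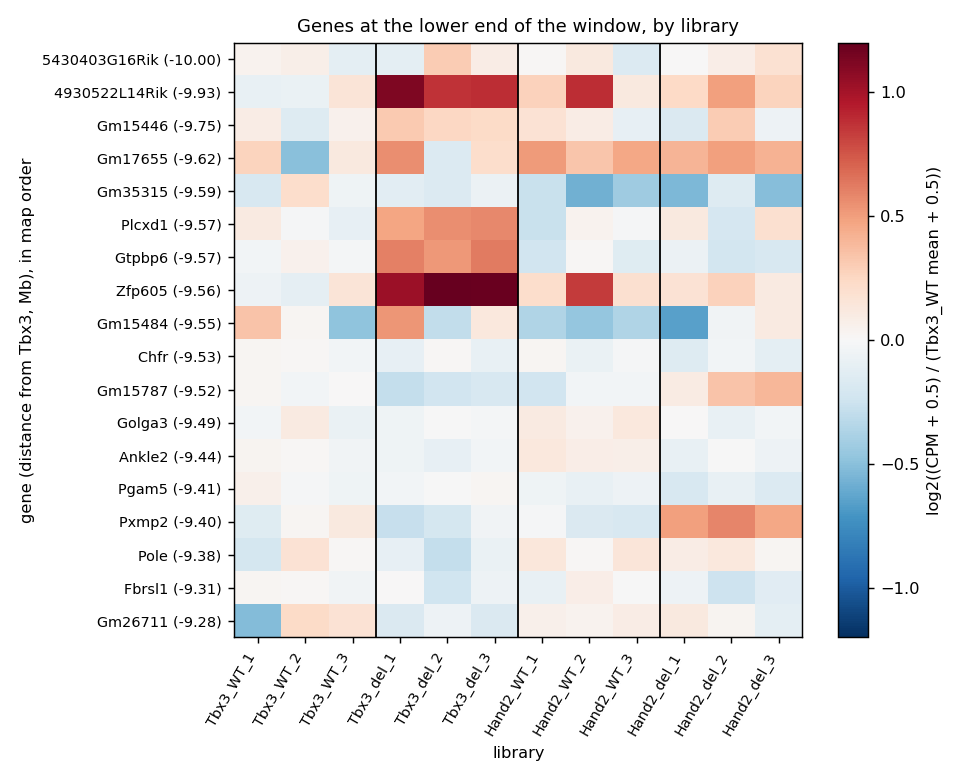
Level of the 18 genes from -9.996 to -9.28 Mb, in map order (rows), in each of the 12 libraries (columns), as log2 of CPM + 0.5 over the Tbx3 wild-type mean + 0.5; red is higher and blue lower. 4930522L14Rik, Plcxd1, Gtpbp6 and Zfp605 are red in all 3 Tbx3-deficient libraries, Hand2 wild-type replicate 2 is red in 4930522L14Rik and Zfp605, and Chfr, Golga3 and Pgam5, further along the map, are pale throughout.

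The map neighbours of these calls did not pass. Gm15446, between 4930522L14Rik and Gtpbp6, was also higher in deficient buds, without overlap. It was at 7.44, 6.17 and 7.21 CPM in Tbx3 wild types and at 8.76, 8.34 and 8.22 CPM in deficient buds (log2 ratio 0.28, adjusted p = 0.357). Chfr, Golga3, Ankle2, Pgam5, Pole and Fbrsl1 follow Zfp605 on the map, and none of the 6 was called in the Tbx3 comparison. Ankle2, which acts in rebuilding the nuclear envelope after mitosis, was at 81.2, 80.1 and 77.3 CPM in Tbx3 wild types and at 76.7, 74.2 and 77.8 CPM in deficient buds (log2 ratio -0.06, adjusted p = 0.606). Chek2, the checkpoint kinase gene at -8.83 Mb, was at 24.2, 23.0 and 23.9 CPM against 17.5, 18.8 and 20.02 CPM, without overlap, and missed the threshold (log2 ratio -0.33, adjusted p = 0.0954). Hscb, whose protein acts in iron-sulfur cluster assembly, lies next to it and was at 9.50, 10.5 and 12.2 CPM against 8.06, 8.37 and 8.41 CPM (log2 ratio -0.37, adjusted p = 0.227). Chek2 and the other neighbours named here and with Gtpbp6 and Acad10 were chosen after their values were seen.

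Mmp17 encodes a membrane-anchored matrix metalloproteinase (ENSMUSG00000029436, 129584169 to 129611099, 9.91 Mb above Tbx3). It was at 5.76, 5.95 and 5.79 CPM in wild types and at 10.6, 12.4 and 13.7 CPM in deficient buds, a log2 ratio of 1.07 (SE 0.127, adjusted p = 0.0153). The 6 Hand2-series libraries lay between 5.46 and 7.15 CPM, with the wild types, and the Hand2-deficient libraries were all below the Hand2 wild types (log2 ratio -0.22, adjusted p = 0.175). The call held in 2 of 6 fits that left out 1 library, and its highest adjusted p was 0.0713.

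Fzd10, a Frizzled receptor of Wnt ligands (ENSMUSG00000081683, 128600844 to 128604093, 8.93 Mb above Tbx3), was at 149, 157 and 142 CPM in wild types and at 111, 100 and 114 CPM in deficient buds. It fell by 0.46 (SE 0.0630, adjusted p = 0.0259). Here the Tbx3 wild types stood apart: all 6 Hand2-series libraries, 103 to 127 CPM, were below them and nearer the Tbx3-deficient libraries. The Hand2 buds are from a later stage. None of the 31-base words of Fzd10 is shared with another gene. Its call held only without deficient replicate 1 among the 6 fits that left out a library.

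Acad10, of the acyl-CoA dehydrogenase family (ENSMUSG00000029456, 121621026 to 121660514), was the call nearest to Tbx3, 1.95 Mb above it. It was at 1.89, 2.01 and 1.92 CPM in wild types and at 4.11, 5.19 and 3.80 CPM in deficient buds, a log2 ratio of 1.17 (SE 0.180, adjusted p = 0.0364). The Hand2 libraries covered the range between, from 2.56 to 4.41 CPM, with 3 of 6 on the wild-type side. It shares 22.9% of its 31-base words with the neighbouring gene Acad12, at 2.02, 2.49 and 3.18 CPM in wild types and at 3.10, 3.37 and 3.42 CPM in deficient buds (log2 ratio 0.36, adjusted p = 0.483). The call was lost without any 1 of the 6 libraries, adjusted p from 0.0508 to 0.120.

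**Figure D4:**
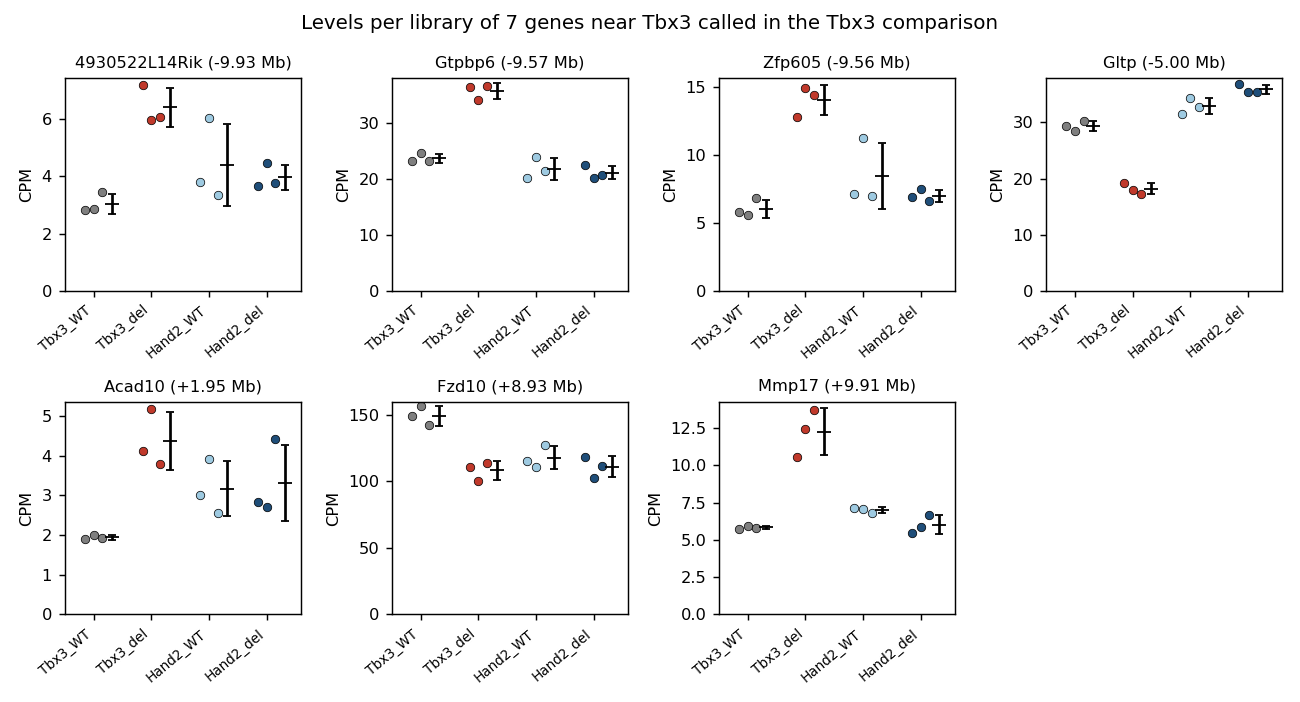
Level in CPM (vertical, from 0) of 7 genes called in the Tbx3 comparison, in each of the 4 groups (horizontal); points are libraries in replicate order, and bars are the mean and SD of 3. The Tbx3-deficient points stand apart from the Tbx3 wild types in all 7 panels, and all 6 Hand2-series points lie on the wild-type side for Gtpbp6, Gltp and Mmp17.

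In the Tbx3-deficient buds low-oxygen response genes were also higher, 7 of 9 passing the test, summing to 451 to 515 CPM in wild types and 782 to 1179 CPM in deficient buds. Macrophage markers summed to 0.831 to 2.34 CPM and 3.50 to 4.54 CPM, with 0 of 1 tested passing, and red cell markers to 2434 to 4048 CPM and 1744 to 3475 CPM, with 0 of 5. None of these markers was at 0 in a whole group. Limb ectoderm markers summed to 226 to 243 CPM and 240 to 253 CPM, with 1 of 7 higher, and endothelial markers to 201 to 219 CPM and 197 to 233 CPM, with 0 of 4. Their part in the 8 calls was not tested. In bulk buds fewer cells of a type and less RNA per cell cannot be told apart.

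The 10 genes nearest to Tbx3 had no call in the Tbx3 comparison. With 3.69% of the genes around Tbx3 called, so few genes would hold few calls, and nothing is read from this. Tbx3os1 is an antisense RNA that starts 101 kb below the start of Tbx3 and overlaps it. It was at 1.12, 0.787 and 1.07 CPM in wild types and at 0.489, 0.382 and 0.0744 CPM in deficient buds, without overlap (log2 ratio -1.65, SE 0.522, adjusted p = 0.211). Since strand is not stated, reads of Tbx3os1 and Tbx3 where they overlap cannot be told apart. The lincRNA Gm43050, 0.16 Mb above, gave -0.21 (adjusted p = 0.780), and Rbm19, whose protein acts in ribosome assembly, gave -0.05 (adjusted p = 0.801).

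Enzymes and transporters follow at 0.79 to 0.86 Mb. Slc8b1, the mitochondrial sodium-calcium exchanger, was at 2.84, 3.02 and 3.49 CPM in wild types and at 5.17, 5.0 and 4.17 CPM in deficient buds (log2 ratio 0.62, adjusted p = 0.152). Plbd2, of the lysosome, was at 37.0, 38.0 and 38.2 CPM against 41.4, 42.7 and 42.4 CPM (log2 ratio 0.16, adjusted p = 0.174). In both genes the groups did not overlap, yet neither passed. Sdsl, a serine dehydratase-like gene, gave 0.17 (adjusted p = 0.759) and Tpcn1, an endolysosomal cation channel gene, 0.06 (adjusted p = 0.711). Rita1 (0.15) and Dtx1 (0.06), both linked to Notch signalling, and the RNA helicase gene Ddx54 (0.01) had adjusted p of 0.576, 0.942 and 0.962.

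Of genes that did not pass, those without overlap whose higher group averaged 5 CPM or more included 2 large rises, both of which reached that level in the deficient group alone. Glt1d1, at 7.96 Mb, was at 3.91, 2.97 and 3.61 CPM in wild types and at 5.99, 6.97 and 6.21 CPM in deficient buds (log2 ratio 0.87, adjusted p = 0.0526). The antisense RNA A930024E05Rik, which overlaps Kdm2b by its annotated ends, was at 3.78, 2.67 and 3.49 CPM and at 5.70, 6.43 and 6.47 CPM (log2 ratio 0.90, adjusted p = 0.0637), while Kdm2b gave 0.05. The gene 2410131K14Rik, at -1.43 Mb, had a log2 ratio of -0.40 in the Tbx3 comparison (adjusted p = 0.130) and of -0.36 in the Hand2 comparison (adjusted p = 0.0426), where it fell.

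The genes around Tbx3 were also grouped by role. With 1.01% of all genes tested called in the Tbx3 comparison, lists of up to 20 genes would hold few calls at that share, and the counts are given as a description. Chromatin and transcription genes gave 0 calls of 14, with a median log2 ratio of -0.03, against -0.003 over all genes. The 3 of highest level, the Polycomb-linked demethylase gene Kdm2b (0.05), the remodeller gene Ep400 (-0.11) and the histone methyltransferase gene Kmt5a (-0.14), had adjusted p of 0.756, 0.502 and 0.222. Replication, repair and cell division genes gave 0 of 16 (median -0.04). Of these Ran, the small GTPase of nuclear transport, was at 1252, 1312 and 1232 CPM in wild types and at 1195, 1312 and 1276 CPM in deficient buds. Ppp1cc gave 0.01 (adjusted p = 0.950) and Cdk2ap1 -0.17 (adjusted p = 0.202).

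RNA processing, ribosome assembly and translation genes gave 0 of 20 (median -0.04), with Gcn1l1 at 0.06, Srsf9 at -0.06 and Sart3 at 0.03. Signalling genes gave 0 of 16 (median 0.01), with Pebp1, the Raf kinase inhibitor gene, at -0.00, Ptpn11, the phosphatase SHP2 gene, at -0.08 and the autophagy kinase gene Ulk1 at -0.05. Membrane traffic, cilia and cytoskeleton genes gave 0 of 20 (median -0.03), with Dynll1 at -0.14, Tmed2 at 0.06 and Coro1c at -0.13. Metabolism and mitochondria genes gave 1 higher, Acad10, and 1 lower, Gltp, of 18 (median 0.03), with Aldh2 at 0.09, Pgam5 at -0.01 and Acads at -0.11.

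Of 9 ion channel and calcium handling genes 7 met the rule, 6 were tested and 0 were called (median -0.03). Slc8b1 and Tpcn1 are given above, and Hvcn1 (-0.03), Atp2a2 (-0.03), P2rx4 (-0.18) and Orai1 (-0.12) had adjusted p from 0.668 to 0.911. Trpv4, at 10.0 counts in the third highest library, was not tested. Of 12 interferon-induced oligoadenylate synthetase genes, which form a cluster here, only Oas1c met the rule, at 0.344, 0.656 and 0.460 CPM in wild types and 0.204, 0.350 and 0.409 CPM in deficient buds (log2 ratio -0.58, adjusted p = 0.590).

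In the Hand2 comparison 23 of the 219 genes were called, 10.5%, the same share as the 10.5% of all 17488 genes tested. Of these 6 were higher, 2.74% against 4.68%, and 17 lower, 7.76% against 5.82%. An unadjusted p under 0.05 was met by 32.4% of the genes and by 32.4% of all, and groups did not overlap in 37.9% and 38.0%. The median log2 ratio was -0.04, against 0.01 over all genes. None of the genes around Tbx3 was called in both comparisons, against 31 of 15089 genes over the whole table, 0.205%. The processed pseudogene Gm13841, at -3.87 Mb, was called in neither, but its levels varied within groups of both series. It was at 172, 167 and 167 CPM in Hand2 wild types and at 0.253, 82.1 and 168 CPM in Hand2-deficient buds. In the Tbx3 series it was at 95.7, 93.3 and 174 CPM in wild types and at 171, 191 and 182 CPM in deficient buds. Gm13841 was chosen after its values were seen, and why it varied was not tested. The count of 23 became 1, 29 and 0 when Hand2 wild-type replicate 1, 2 or 3 was left out. It became 2, 12 and 3 when Hand2-deficient replicate 1, 2 or 3 was. Hand2-deficient replicate 1 stood apart from its group by 1 measure. Its counts differed from those of replicates 2 and 3 by a mean chi-square over genes of 209.4 and 223.6. Every other pair of replicates of the 4 groups had 29.65 or less. A few genes of high counts can raise such a mean, so it does not show how many genes differed. Markers moved as well. Limb mesenchyme markers summed to 1638 to 1888 CPM in Hand2 wild types and 1971 to 2412 CPM in Hand2-deficient buds, with 4 of 7 higher and 1 lower. Ectoderm markers summed to 222 to 248.6 CPM and 202 to 211 CPM, with 1 of 7 lower, and endothelial markers to 201 to 206 CPM and 214 to 235 CPM, with 1 of 4 higher. Of the low-oxygen response genes 1 of 9 was higher, summing to 439 to 471 CPM and 385 to 492 CPM. The part of these markers in the 23 calls was not tested.

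Of 20 genes of RNA processing, ribosome assembly and translation around Tbx3, 7 fell in Hand2-deficient buds, where 5.82% of all genes tested and 7.76% of the genes around Tbx3 fell. The list was drawn up with earlier results known, its median log2 ratio was -0.14, and nothing is read from its count. Each of these 7 calls held in at most 2 of the 6 fits that left out 1 library, and all 7 were lost with the replicate number as a block (adjusted p from 0.127 to 0.174) or with sex in the model (0.0689 to 0.101). They are Noc4l, Ddx51, Ddx54, Rbm19, Naa25, Atxn2 and Rsrc2. Noc4l, a nucleolar protein gene of small-subunit assembly, was at 58.8, 55.8 and 56.0 CPM in Hand2 wild types and at 47.0, 51.7 and 47.9 CPM in Hand2-deficient buds (log2 ratio -0.22, adjusted p = 0.0347). The others fell by 0.13 to 0.29 on the log2 scale. None of the 7 was called in Tbx3-deficient buds, where Noc4l was at 62.3, 59.9 and 59.4 CPM in wild types and 69.9, 63.7 and 68.4 CPM in deficient ones.

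Slc15a4, a lysosomal transporter of histidine and small peptides, was at 27.3, 28.0 and 30.6 CPM in Hand2 wild types and at 20.5, 20.3 and 22.5 CPM in Hand2-deficient buds, a log2 ratio of -0.44 (adjusted p = 0.0180). Other genes that fell were Fam222a (-0.73), 2410131K14Rik (-0.36), the actin-binding gene Coro1c (-0.36), Kmt5a (-0.28), Unc119b (-0.24), Zfp664 (-0.22), Vps37b (-0.19), Cdk2ap1 (-0.18) and Ankle2 (-0.15). Higher in Hand2-deficient buds were Gm38102 (0.86), the peroxisomal membrane gene Pxmp2 (0.80), the homeobox gene Cux2 (0.62), the lipoprotein receptor gene Scarb1 (0.36), the kinase gene Taok3 (0.35) and Mmab, of cobalamin metabolism (0.34). Cux2 was at 12.1, 11.4 and 8.26 CPM in Hand2 wild types and at 17.1, 15.1 and 16.5 CPM in Hand2-deficient buds.

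The difference between both effects, the Tbx3 log2 ratio minus the Hand2 one, was tested in a fit of all 12 libraries. It passed for 10 of 219 genes, 4.57%, against 1.68% of 17360 genes. In 7 the Tbx3 effect was the higher one, 3.20% against 0.893%, and in 3 the lower one, 1.37% against 0.789%. Gltp (-0.82, SE 0.0754, adjusted p = 0.000556), Mmp17 (1.29, SE 0.156, adjusted p = 0.00412), Gtpbp6 (0.64, SE 0.102, adjusted p = 0.0128) and Zfp605 (1.49, SE 0.242, adjusted p = 0.0139) kept the call without each of the 12 libraries. With the replicate number as a block Gtpbp6 lost it (adjusted p = 0.1). Embryo sex was not put in the model of this fit. Of the other genes called in the Tbx3 comparison none passed here: 4930522L14Rik had 1.22 (adjusted p = 0.0644), Fzd10 -0.38 (adjusted p = 0.0925) and Acad10 1.10 (adjusted p = 0.113). Stage, targeted gene, kind of loss, balance of sexes and depth differ together between both series, and their parts in these differences cannot be told apart.

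**Figure D5:**
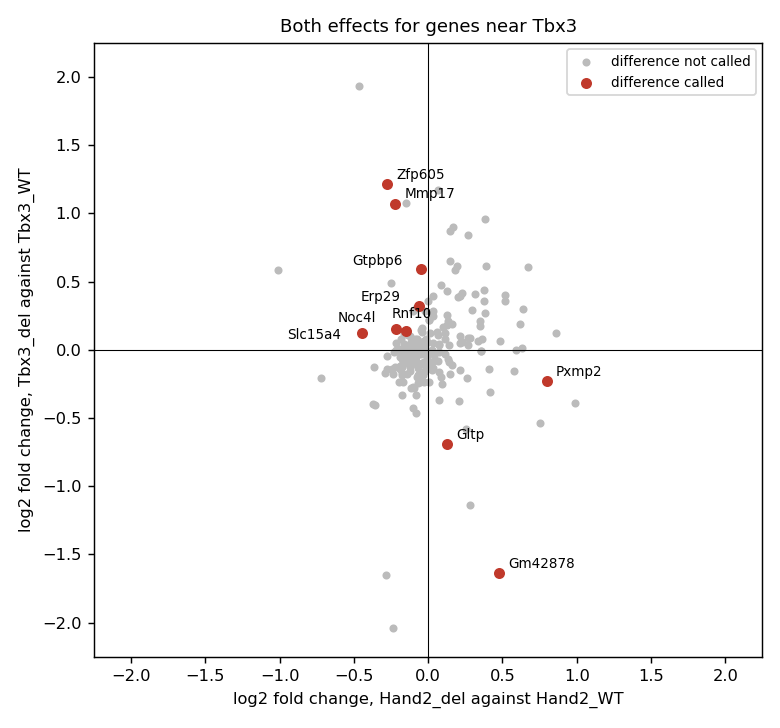
Log2 fold change in the Tbx3 comparison (vertical) against that in the Hand2 comparison (horizontal) for 216 genes tested in both; each point is 1 gene, and red points are the 10 whose difference of effects passed. Zfp605, Mmp17 and Gtpbp6 lie above the zero line and left of the other, Gltp below the zero line, and Pxmp2 and Slc15a4 far to the right and left along it.

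None of the genes next to the distance limit was called in the Tbx3 comparison. Just inside the distance limit, 5430403G16Rik (-9.996 Mb) had a log2 ratio of 0.12, Zfp11 (9.98 Mb) -0.20 and the pseudogene Gm6139 (9.95 Mb) 1.93, the last at 0.301, 0.306 and 0.269 CPM in wild types and 1.71, 0.795 and 0.893 CPM in deficient buds. Just outside, Mrps17 had 0.10, Nipsnap2 0.02 and Psph -0.07. Just inside the count minimum, Trpv4 and Gm42748 had 10.0 counts in the third highest library and Gm15787 10.5. Just outside, Iqcd had 9.15, 4930515G01Rik 9.03 and Gm10416 9.0.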

How the data were processed

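Total RNA of 12 pairs of forelimb buds was sequenced with single-end reads of 85 bp from SMARTer libraries, with RNA integrity of at least 8.0, per the labels' protocols. The deposited values are expected counts per Ensembl gene, which the authors made with STAR 2.5.2 and RSEM 1.3.0 on mm10 after FastQC 0.11.4, per the submitters' processing notes. The sources used here do not state strand, litters or dissection days. Replicates are separate pairs of buds. Each file's library was taken from its label. The values were rounded to whole numbers, since 12.5% to 16.2% of them per library were not whole.

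Positions and symbols came from GENCODE release M21 (GRCm38), matched by Ensembl identifier for 53274 of 53465 genes. Promoters came from RefSeq. Fits of 6 libraries set each mutant group against the wild types of its series in edgeR 4.0.16 (R 4.3.3). They used TMM, filterByExpr with a minimum count of 10 and a minimum total of 15, and the quasi-likelihood F test, with p-values adjusted by Benjamini-Hochberg over the whole table. Genes with an adjusted p under 0.05 count as called. Log2 ratios are deficient over wild type, computed with a prior count of 0.125, and SE is their size over the root of F. Shares of calls were read beside those over all genes, and no test was made over the list. Words shared between genes are 31-base runs of their annotated exons. The fits were tested on simulated data.

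The genes, role lists, tests and named-gene rule were chosen with earlier results of these data known. Named are all called genes, the 10 nearest to Tbx3, the 5 largest rises and falls without overlap whose higher group averaged 5 CPM or more, 3 genes on each side of each limit, the 3 of highest level per role list and all ion channel and oligoadenylate synthetase genes. The alternatives were DESeq2 1.42.0, limma-voom 3.58.1, other scaling, filters, windows and thresholds, sex as a covariate, the replicate number as a block and each library left out. The labels name no molecular identifiers, so reads may not be independent molecules, and errors are those between libraries. The result of 1 called gene is not reported here, and counts include it.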

Additional observations from a re-analysis of the deposited data

Results flagged for a closer look

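For 10 genes the effect in Tbx3-deficient buds differed from that in Hand2-deficient buds by the test of the difference itself, in edgeR's fit of all 12 libraries. Values are the Tbx3 effect minus the Hand2 effect on the log2 scale, with Benjamini-Hochberg adjusted p over all genes tested. Gltp had -0.82 (adjusted p = 0.000556), Mmp17 1.29 (0.00412), Gtpbp6 0.64 (0.0128) and Zfp605 1.49 (0.0139), and these 4 passed without each of the 12 libraries. Embryo sex was not in the model of these fits. Noc4l had 0.37 (0.0247) and Slc15a4 0.56 (0.0254), each passing in 6 of 12 such fits. Rnf10, a RING finger ubiquitin ligase gene, had 0.29 (0.0335), and Erp29, a protein of the endoplasmic reticulum lumen, 0.38 (0.0418). Pxmp2 had -1.03 (0.0422) and Gm42878 -2.12 (0.0441).

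Gm42878, annotated as protein coding, shares 99.3% of its 31-base words with Adam1a, so its counts and those of Adam1a depend on how reads were split. It was at 1.16, 1.27 and 1.92 CPM in Tbx3 wild types and at 0.692, 0.382 and 0.335 CPM in Tbx3-deficient buds, and Adam1a gave a log2 fold change of -0.37 (adjusted p = 0.541). Erp29 was at 78.8, 81.5 and 74.5 CPM in Tbx3 wild types and at 89.0, 101 and 102 CPM in Tbx3-deficient buds (log2 fold change 0.32, adjusted p = 0.0765), and 24.4% of its exon bases overlap Naa25 on the opposite strand. Rnf10 was higher in all 3 Tbx3-deficient libraries (481, 469 and 480 CPM against 444, 436 and 421 CPM) and lower in all 3 Hand2-deficient libraries (378, 375 and 369 CPM against 414, 400 and 432 CPM), and passed in neither comparison alone. Pxmp2 passed in 0 of 12 fits that left out a library, and Rnf10, Erp29 and Gm42878 in 2 of 12 each. The causes were not tested.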

How the results depend on the processing

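In the Tbx3 comparison the 8 calls around Tbx3 became 20 with no low-count filter, 23 with DESeq2, 0 with sex as a covariate, 4 with the replicate number as a block, 22 at an adjusted p under 0.1, 3 at one under 0.01, 1 in a window of 5 Mb and 13 in one of 20 Mb. They stayed at 8 with DESeq2 size factors, count minimums of 20 and 50 and the 5′ end as position, and limma-voom gave 7. Leaving out 1 library gave 2 to 8. The 23 Hand2 calls became 49 with DESeq2, 3 with sex as a covariate, 0 with the block, 48 at an adjusted p under 0.1, 0 at one under 0.01, 13 in a window of 5 Mb and 56 in one of 20 Mb, and leaving out 1 library gave 0 to 29. The 10 differences of effects became 3 with the block and 4 to 10 without 1 library, and were not refitted with sex. Without 1 library the median log2 fold change was -0.01168 to -0.002547 in the Tbx3 and -0.03648 to -0.02436 in the Hand2 comparison. Deviations of same-numbered libraries correlated by 0.074, 0.013 and -0.008 in the Tbx3 series and by -0.128, 0.031 and 0.027 in the Hand2 series. Those of other pairs correlated by -0.115 to 0.103 and by -0.151 to 0.13. No pairing by replicate number was seen, but with 3 libraries per group this cannot show whether libraries shared litters or days. Windows differ by the genes they hold and thresholds by construction, and Gltp, at 5001 kb, is just outside the window of 5 Mb. For the other settings the cause was not tested. The named genes kept their direction wherever called. The share of the genes around Tbx3 with an unadjusted p under 0.05 was above that of all genes in every refit of the Tbx3 comparison, lowest with sex as a covariate (15.7% against 8.20%). These shares were compared after the data were seen. With 3 libraries per group and 23.3 to 31.8 M counts, changes of low genes were measured with errors of up to 1.11 on the log2 scale (Gm10401).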
